A study of Oryzias latipes and Danio rerio with 6 samples.

Results

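This account covers the zebrafish regions that lie on unplaced sequences, the pieces of the genome assembly that have not been assigned to a chromosome. A region was a member when its sequence was neither one of chromosomes 1 to 25 nor the mitochondrial genome. Of the 35724 regions in the 4 zebrafish lists, 1096 met this rule, out of 52712 regions in the whole series of zebrafish and medaka lists. They comprised 226 regions of the Yap1 positive list, 187 of the Yap1 control list, 480 of the Taz positive list and 203 of the Taz control list. Together they lay on 423 unplaced sequences, all of them named chrUn in the GRCz10 (danRer10) assembly.

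The embryos were wild type and were injected with mRNA for Yap1 fused to the bacterial adenine methylase Dam (DAM-zYap1), for Taz fused to Dam (DAM-zTaz) or for GFP fused to Dam (DAM-zGFP). DNA was taken from whole embryos at 80% epiboly, so every cell type of the embryo contributed to it, and all groups carried an injected Dam fusion. Each group was 1 sample made from 3 replicates of 40 embryos, per the labels' protocols, and each sample was represented by finished region lists with no values per replicate. The spread between replicates could therefore not be measured, no test over samples was possible, and the Wilson 95% intervals below cover the counting of regions only. The control list of each factor belonged to the same Dam-GFP sample.

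Yap1 and Taz are the transcriptional co-activators at the end of the Hippo pathway, which restrains tissue growth. Neither binds DNA by itself, and both are brought to their targets by DNA-binding partners, of which the TEAD factors are the best known. In DamID, the Dam fusion methylates adenine in the sequence GATC near the places it touches, and the enzyme DpnI cuts the methylated sites, so that recovered fragments run from one GATC to another. Unplaced sequences of a vertebrate assembly are often those that could not be joined because their sequence recurs elsewhere. No zebrafish genome was used here, so the bases, the genes and the true lengths of these sequences were not analysed.

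Both factors had a larger part of their positive list than of their control list on unplaced sequences. The intervals of the odds ratios for Taz and Yap1 did not overlap. These intervals also cover the counting of regions only and treat neighbouring regions as independent, with 1 sample per group. They held 480 of 8608 Taz positive regions (5.58%, 95% interval 5.11 to 6.08), against 203 of 11025 Taz control regions (1.84%, 1.61 to 2.11). For Yap1 they held 226 of 7553 positive regions (2.99%, 2.63 to 3.40), against 187 of 8538 control regions (2.19%, 1.90 to 2.52). Relative to assembled chromosomes, the odds that a region was unplaced were 3.15 times as high in the Taz positive list as in the Taz control list (2.67 to 3.72). The same odds ratio was 1.38 (1.13 to 1.68) for Yap1. The Taz value stayed between 3.06 and 3.62 under every alternative tried. The Yap1 value rested on few sequences. It was 1.12 (0.911 to 1.38) without the pair of sequences richest in regions, chrUn_KN149688v1 and chrUn_KN150342v1. It was 1.16 (0.925 to 1.46) when regions within 10 kb were counted once. The pair was chosen for its counts and held 45 of 226 Yap1 positive but 3 of 187 Yap1 control members. Leaving the pair out therefore lowers the Yap1 value by construction. A larger part of the positive list was not particular to unplaced sequences. The outer 1 Mb of the assembled chromosomes, included in the reference above, held 2071 of 8608 Taz positive against 454 of 11025 Taz control regions. They held 569 of 7553 Yap1 positive against 395 of 8538 Yap1 control regions.

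**Figure D1:**
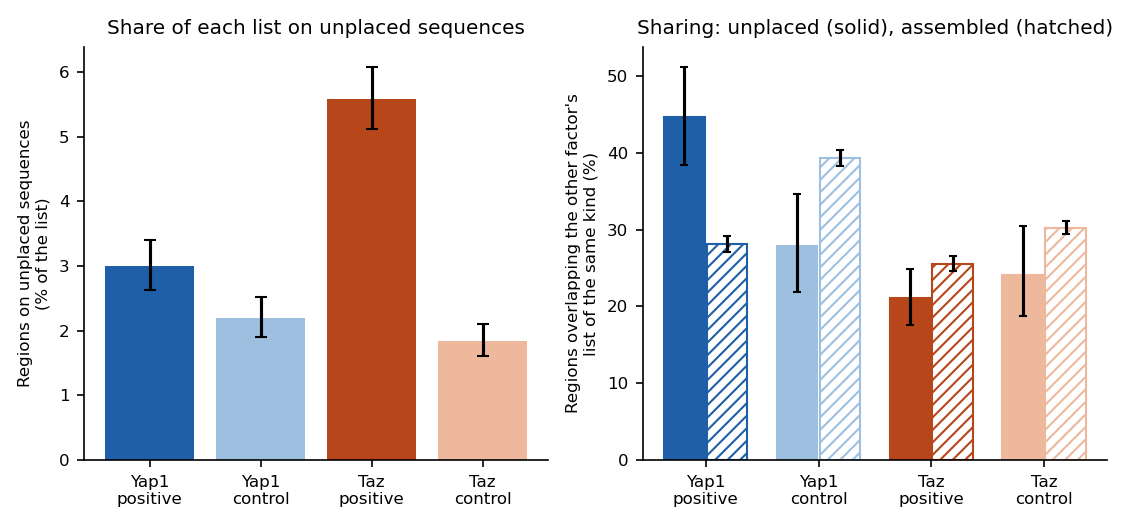
Left, the percentage of each zebrafish list on unplaced sequences; right, the percentage of regions that overlap the other factor's list of the same kind, for unplaced regions (solid) and assembled chromosomes (hatched). Bars are shares of regions and error bars Wilson 95% intervals; the Taz positive list has 5.58% of its regions on unplaced sequences and the other lists have at most 2.99%, and only the Yap1 positive list has a higher shared percentage on unplaced sequences than on assembled chromosomes.

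In each list the median region was slightly longer on unplaced sequences than on assembled chromosomes. Median lengths on unplaced sequences were 978.5 bp (Yap1 positive), 925 bp (Yap1 control), 1064 bp (Taz positive) and 836 bp (Taz control). On assembled chromosomes the same lists had medians of 957, 906, 976 and 803 bp. Regions under 300 bp numbered 19 Yap1 positive members (8.41%) against 3 Yap1 control members, and 30 Taz positive members (6.25%) against 4 Taz control members. Such short regions were also more common in the positive lists on assembled chromosomes, with 5.17% of Yap1 positive against 0.407% of Yap1 control regions. There they made up 7.60% of Taz positive against 0.850% of Taz control regions, so the Taz positive share was no higher among the members. The lengths of the members summed to 298.1 kb for Yap1 positive, 232.1 kb for Yap1 control, 645.8 kb for Taz positive and 217.2 kb for Taz control.

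The score is the authors' own whole number for each region. The quantity behind it is unknown here, so it only orders regions of the same list. Yap1 positive members had a median score of 89 (57 to 799), against 96 for the Yap1 positive regions of assembled chromosomes. Taz positive members had a median of 110 (66 to 700), against 106 on assembled chromosomes. The highest score of each positive list, 1000, lay on an assembled chromosome.

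A share of the Taz members began at the first base of their sequence. This held for 24 of 480 Taz positive members (5%, 3.38 to 7.33), against 3 of 203 Taz control members (1.48%, 0.504 to 4.25). For Yap1 it held for 6 of 226 positive members (2.65%) and 4 of 187 control members (2.14%). The intervals of each positive list and its control overlapped. On assembled chromosomes it held for 5 of 8128 Taz positive regions (0.0615%) and 2 of 7326 Yap1 positive regions (0.0273%). Each list covered 25 assembled chromosomes but many more unplaced sequences, so that more first bases were available there. These sequences numbered 264 for Taz positive against 148 for Taz control, and 141 for Yap1 positive against 123 for Yap1 control.

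Most unplaced sequences held either positive or control regions, not both. Of the 423 sequences, 214 (50.6%) held positive regions only, 119 (28.1%) held control regions only and 90 (21.3%) held both kinds. The most common pattern was Taz positive alone, on 123 sequences, followed by Yap1 positive with Taz positive on 64, Taz control alone on 63, Yap1 control alone on 32 and Yap1 positive alone on 27. Both control lists and no positive list occurred together on 24, and all 4 lists on 16. A single region was all that 185 of the 423 sequences held, so these could not hold both kinds. Another 8 sequences held 10 or more regions.

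Sequences occupied by Yap1 were mostly occupied by Taz as well, but Taz positive regions lay on most of the 423 sequences (62.4%). Of the 141 sequences with a Yap1 positive region, 101 (71.6%) also held a Taz positive region, and these made up 38.3% of the 264 Taz sequences. In the control lists, 62 sequences held both, 50.4% of the 123 Yap1 control sequences and 41.9% of the 148 Taz control sequences. Of the 423 sequences, Yap1 positive regions lay on 33.3%, Taz control regions on 35.0% and Yap1 control regions on 29.1%. Only sequences with a region of any of the lists are among the 423. Those without a region were not counted, which raises these base shares. For the positive lists 71.6% and 38.3% stood above 62.4% and 33.3%. For the control lists 50.4% and 41.9% stood above 35.0% and 29.1%. How far these differences depend on the choice of the base was not tested. Taz regions outnumbered Yap1 regions on 202 of the 304 sequences with either, Yap1 regions outnumbered Taz regions on 55, and 47 had equal numbers. Against its own control list, Taz had more positive regions on 228 of 361 sequences and fewer on 105, while Yap1 had more on 112 of 226 and fewer on 92.

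The last base covered by any region gives a lower bound of the length of a sequence. Its median was 11.8 kb on the sequences with positive regions only, 16.8 kb on those with control regions only and 43.6 kb on those with both kinds. Longer sequences have room for more regions, so these medians are given as a description.

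The Yap1 positive list had a pair of sequences with far more regions than the others. The sequence chrUn_KN149688v1 alone held 27 of the 226 Yap1 positive members (11.9%), against 3 of 187 Yap1 control members, with 3 Taz positive and 3 Taz control regions. On chrUn_KN150342v1 there were 18 Yap1 positive and 12 Taz positive regions, and neither control list had a region there. Together these held 45 of the 226 Yap1 positive members (19.9%). Most other sequences held few regions of a list: 108 of the 141 sequences with a Yap1 positive region (76.6%) held 1 of them, against 91 of 123 (74.0%) for Yap1 control. For Taz this was the case for 162 of 264 sequences (61.4%) with a positive region, against 112 of 148 (75.7%) for Taz control.

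The next sequences in the order of total counts had fewer regions and a different balance of the lists. On chrUn_KN150487v1 there was 1 Yap1 positive region against 8 Yap1 control regions, and 4 Taz positive against 4 Taz control regions. On chrUn_KN149683v1 there was no Yap1 positive region against 6 Yap1 control regions, and 2 Taz positive against 4 Taz control regions. The sequence chrUn_KN150677v1 was nearly balanced, with 3 Yap1 positive and 3 Yap1 control regions and 3 Taz positive and 2 Taz control regions. On chrUn_KN149696v1 the positive lists held 4 regions each and the control lists 1 each. Further down, Taz dominated chrUn_KN150698v1, with 9 Taz positive regions, 1 Yap1 positive region and no control region. On chrUn_KN149719v1 all 8 regions were Taz positive. The last pair of sequences was named after the counts had been seen.

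**Figure D2:**
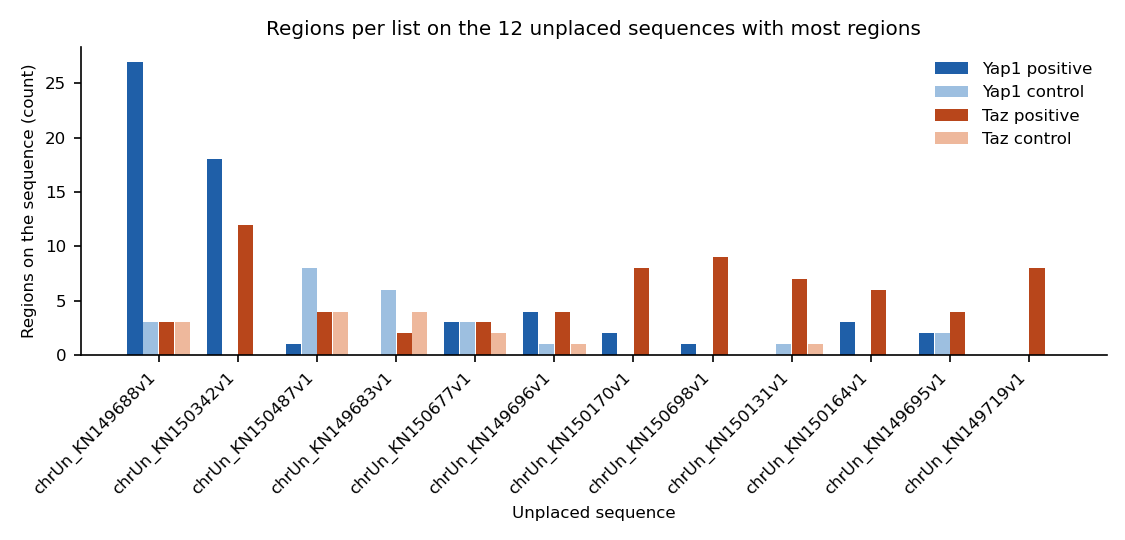
Number of regions (vertical axis, count) of each of the 4 lists on the 12 unplaced sequences with most regions in all, ordered by total. The Yap1 positive list stands out on chrUn_KN149688v1 with 27 regions and chrUn_KN150342v1 with 18, while the control lists reach at most 8, on chrUn_KN150487v1.

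Clustering was described as the share of regions within 10 kb of another region of the same list. It was 42.9% (36.6 to 49.4) in the Yap1 positive members and 33.2% (26.8 to 40.2) in the Yap1 control members, where 33.6% of the whole Yap1 positive list and 37.6% of the whole Yap1 control list were clustered. For Taz it was 47.3% (42.9 to 51.8) of positive and 24.6% (19.2 to 31.0) of control members, where the whole lists had 41.1% and 22.9%. Clusters of at least 3 regions held 59 Yap1 positive members (26.1%) against 20 Yap1 control members (10.7%), where the whole lists had 14.2% and 11%. Of these 59 members, 40 belonged to the clusters of 25 and 15 regions on chrUn_KN149688v1 and chrUn_KN150342v1. Such clusters held 121 Taz positive members (25.2%) against 24 Taz control members (11.8%), where the whole lists had 21.4% and 5.58%. Without chrUn_KN149688v1 and chrUn_KN150342v1, the clustered share (10 kb) was 29.8% (23.6 to 36.9) of Yap1 positive against 33.7% (27.3 to 40.8) of Yap1 control members, so that the positive share was then the lower one. Without both sequences it was 46.2% of Taz positive against 25.0% of Taz control members. Both sequences were chosen for their counts, so leaving them out lowers the Yap1 positive share by construction. Short sequences cut clusters off at their ends, and that effect was not measured.

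The largest cluster of each list had 6 to 25 regions. For Yap1 positive it was 25 regions over 58.4 kb of chrUn_KN149688v1 (59293 to 117660), with scores of 57 to 87. For Yap1 control it was 7 regions over 12.7 kb of chrUn_KN150487v1 (371 to 13065), with scores of 58 to 133. For Taz positive it was 10 regions over 11.6 kb of chrUn_KN150342v1 (18103 to 29710), with scores of 81 to 162. For Taz control it was 6 regions over 15.8 kb of chrUn_KN150331v1 (27680 to 43527), with scores of 69 to 85.

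Many neighbouring regions were separated by exactly 4 bp, the length of a GATC site. Without a genome, whether these 4 bp are GATC sites and the regions adjoining fragments was not tested. Among neighbours within 10 kb on unplaced sequences, such gaps made up 27 of 70 for Yap1 positive (38.6%, 28.1 to 50.3), against 5 of 36 for Yap1 control (13.9%, 6.08 to 28.7). They made up 21 of 145 for Taz positive (14.5%, 9.67 to 21.1), against 2 of 31 for Taz control (6.45%, 1.79 to 20.7). On assembled chromosomes the values were 17.2% and 7.41% for Yap1 positive and control, and 15.6% and 6.44% for Taz positive and control. Of the 27 Yap1 gaps, 16 lay on chrUn_KN149688v1 and 3 on chrUn_KN150342v1. When regions joined by such gaps were counted once, the 226 Yap1 positive members became 198 stretches, against 182 for the 187 Yap1 control members. The 480 Taz positive members became 459, against 201 for the 203 Taz control members.

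**Figure D3:**
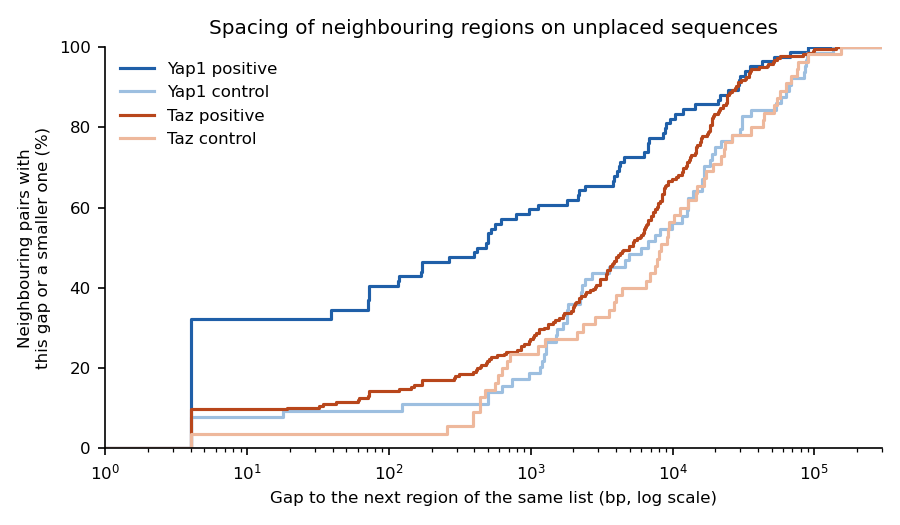
Cumulative percentage of neighbouring region pairs (vertical axis) by the gap between them in bp (horizontal axis, log scale), for each list on unplaced sequences; 1 overlapping Yap1 positive pair is left out. The Yap1 positive curve steps up at 4 bp and has a median gap near 416 bp, against 4904 bp for Taz positive, 6384 bp for Yap1 control and 8277 bp for Taz control. Of all 85 Yap1 positive pairs, 26 lay on chrUn_KN149688v1 and 17 on chrUn_KN150342v1. The median gap without these sequences was not measured, so the small value may not hold for the other unplaced sequences.

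The Yap1 cluster on chrUn_KN149688v1 was a densely covered, low-scoring domain in which the Taz positive and Taz control lists had 1 region each. Its 25 regions covered 79.7% of the 58.4 kb and had a median score of 71. The longest run with gaps of at most 4 bp joined 11 regions over 20841 bp (59293 to 80133), followed by 4 regions over 8559 bp (109102 to 117660). The 3 Taz positive regions of the sequence lay at 107684 to 108129, 198356 to 198922 and 250874 to 252229, and the first and the last of them overlapped Yap1 regions. The Yap1 control regions of the sequence had scores of 57 to 58, and the Taz control regions 76 to 140. The Taz control region inside the domain lay at 101237 to 101450 (score 77), where no Yap1 positive region lay between 98733 and 107684. Past the end of the domain, both control lists had a region at 118607 to 119059.

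The edges of this Yap1 domain recurred at a regular spacing. Of the 300 distances between the starts of its 25 regions, 44 (14.7%) were whole multiples of 1305 bp, and no other divisor from 1000 to 2000 bp divided more than 8 of them. In 22 of the 25 regions the start had the same remainder after division by 1305 as the start of another region. Equal lengths recurred as well: 3 regions of 512 bp began at 62198, 67418 and 96128, and 2 regions of 2090 bp began 16965 bp apart, at 67934 and 84899. Its only pair of overlapping neighbours, where the region 65324 to 66624 began 455 bp before the end of the previous one, was the single overlap within any list on unplaced sequences. The spacing was noticed in these data and the divisor chosen from them.

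Among all clusters of at least 3 regions in the 4 zebrafish lists, a single other cluster had 2 or more start distances that were multiples of 1305 bp. It was also a Yap1 positive cluster, on chromosome 4 (59552731 to 59589161), with 10 regions, scores of 60 to 83 and no overlap with a Taz positive region. There 12 of 45 start distances (26.7%) were multiples of 1305 bp. Region lengths of 512, 1301, 1874 and 2090 bp occurred in both clusters. Over all other assembled Yap1 positive clusters of at least 3 regions no such distance occurred, the 12 above being the whole of the assembled total of 1601. In Taz positive clusters the count was 0 of 248 on unplaced sequences and 2 of 3594 on assembled chromosomes. Whether the DNA of these clusters is alike was not tested.

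**Figure D4:**
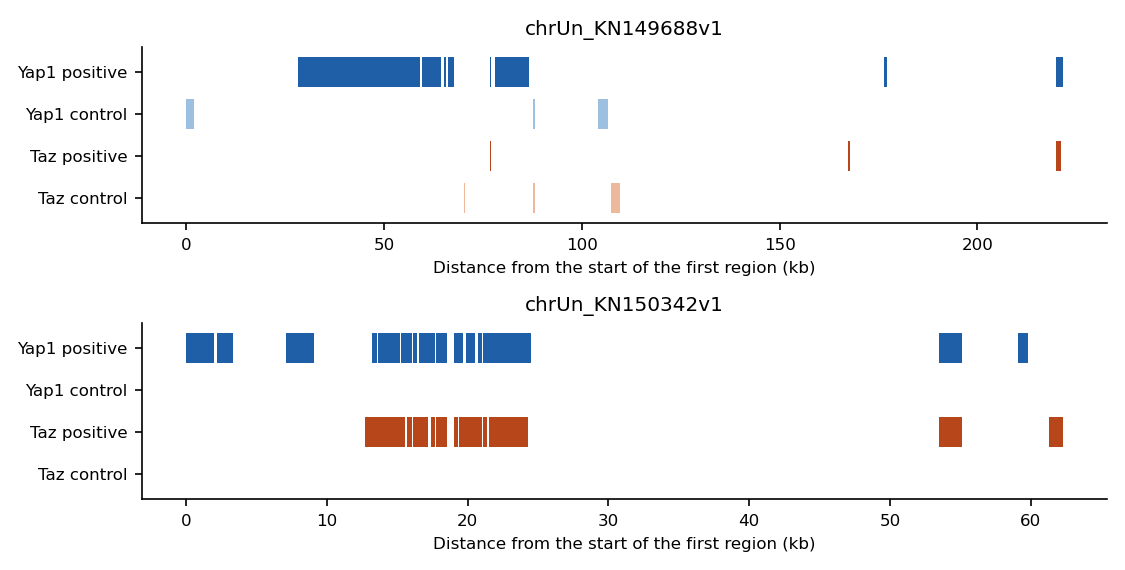
Regions of the 4 lists (rows) along the 2 unplaced sequences with most regions; the horizontal axis is the distance in kb from the start of the first region on the sequence, and each block is 1 region drawn to scale. On chrUn_KN149688v1 the Yap1 positive row holds a 58.4 kb domain where the Taz positive and Taz control rows have 1 region each. On chrUn_KN150342v1 Yap1 and Taz positive regions lie together with no control region.

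On chrUn_KN150342v1, Yap1 and Taz regions lay side by side. Of the 18 Yap1 positive regions 13 overlapped a Taz region, and of the 12 Taz positive regions 11 overlapped a Yap1 region. Yap1 scores ran from 63 through a median of 162.5 to 321, and Taz scores from 81 through 104.5 to 162. Small gaps recurred: 5 of 17 Yap1 gaps and 4 of 11 Taz gaps were 71 or 72 bp, and 2 Yap1 and 3 Taz gaps were 170 bp. Taz had 3 regions of 302 bp, which began at 21113, 22768 and 24426, at distances of 1655 and 1658 bp. Yap1 had pairs of 302, 757 and 1952 bp. Over all unplaced clusters, regions with a length equal to that of another region of the same cluster were 11 of 97 for Yap1 positive (11.3%, 6.45 to 19.2) and 3 of 227 for Taz positive (1.32%, 0.451 to 3.81). All 11 Yap1 regions lay on chrUn_KN149688v1 and chrUn_KN150342v1, and all 3 Taz regions on chrUn_KN150342v1, so no other unplaced cluster of these lists had any. The control clusters had 0 of 62 for Yap1 and 0 of 50 for Taz. On assembled chromosomes the shares were 0.901% for Yap1 positive and 0.540% for Yap1 control, and 0.181% for Taz positive and 1.21% for Taz control.

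Yap1 members were shared with Taz more often than the Yap1 regions of assembled chromosomes as a whole, though not more often than those at chromosome ends, which are described last. A region was called shared when it overlapped a region of the other list by at least 1 bp. Of the Yap1 positive members, 101 of 226 (44.7%, 38.4 to 51.2) overlapped a Taz positive region, where 28.6% of the whole Yap1 positive list did. On assembled chromosomes the share was 28.1% (27.1 to 29.1), an odds ratio of 2.07 (1.58 to 2.70), unplaced over assembled. Of the Taz positive members, 101 of 480 (21.0%, 17.6 to 24.9) overlapped a Yap1 positive region, where 25.3% of the whole Taz positive list did. The odds ratio for Taz was 0.776 (0.620 to 0.972). Both shares count the same overlaps, so each depends on the number of regions in both lists. There were 480 Taz positive to 226 Yap1 positive regions on unplaced sequences, and 8128 to 7326 on assembled chromosomes. How far these numbers account for the opposite odds ratios was not tested. The Yap1 odds ratio lay between 1.58 and 2.53 under the alternatives tried, and its interval left out 1 in each.

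Sharing between the Dam-GFP control lists was lower on unplaced sequences for the Yap1 control list, and for the Taz control list the interval of the odds ratio held 1. The Yap1 control members overlapped a Taz control region in 52 of 187 cases (27.8%, 21.9 to 34.6), where 39% of the whole list did, an odds ratio of 0.595 (0.431 to 0.822), unplaced over assembled. The Taz control members overlapped a Yap1 control region in 49 of 203 cases (24.1%, 18.8 to 30.5), where 30.1% of the whole list did, an odds ratio of 0.734 (0.531 to 1.02). Both factors were set against the same Dam-GFP sample, so its part in the positive and control overlaps cannot be told apart from that of the factors.

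The shared Yap1 and Taz regions formed 113 overlapping pairs on 75 sequences. The pairs had 103.3 kb in common, 34.7% of the length of the Yap1 members and 16.0% of that of the Taz members. In 42 pairs (37.2%) both edges were identical, in 44 (38.9%) 1 edge was, and in 27 (23.9%) neither was. On assembled chromosomes these shares were 41.5%, 47.0% and 11.5%. Some of the unplaced pairs lay on the single sequence chrUn_KN150342v1, where 13 of 18 Yap1 and 11 of 12 Taz positive regions were shared. The edge shares without this sequence were not measured. Control pairs had identical edges more often in both places, in 33 of 52 cases (63.5%) on unplaced sequences and in 71.6% on assembled chromosomes. When an overlap of at least 50% of both regions was required, 28.3% of Yap1 and 13.3% of Taz members were shared.

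A sequence that held both factors usually held a shared region. Of the 101 sequences with both positive lists, 75 (74.3%) had at least 1 shared region, and in the control lists this held for 43 of 62 (69.4%). Among the 125 unshared Yap1 members, 45 lay on a sequence without any Taz region and 80 on a sequence with one. Among the 379 unshared Taz members, 259 (68.3%) lay on a sequence without any Yap1 region.

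High-scoring Yap1 members were mostly shared with Taz. When the whole Yap1 positive list was cut into 4 score classes at its quartiles, the shared share of its unplaced members was 25.0%, 36.1%, 43.8% and 83.7% from the lowest to the highest class. The highest class held 49 members, of which 41 were shared (71.0 to 91.5). Some of them lay on the single sequence chrUn_KN150342v1, where 13 of 18 Yap1 positive regions were shared and the median score was 162.5. On chrUn_KN149688v1 2 of 27 Yap1 positive regions were shared and the median score was 71, the upper bound of the lowest class. The shares of the classes without these sequences were not measured. Yap1 regions of the highest class on assembled chromosomes were shared in 50.8% (48.5 to 53.1). The shares of Taz members by class were 16.8%, 17.1%, 24.6% and 25.0% (18.4 to 33.0), against 34.4% (32.4 to 36.5) in the highest class on assembled chromosomes. The median score of Yap1 members was 108 when shared and 76 when not, and that of Taz members 122 when shared and 106 when not. The Yap1 medians include chrUn_KN149688v1 and chrUn_KN150342v1, and their values without these sequences were not measured.

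**Figure D5:**
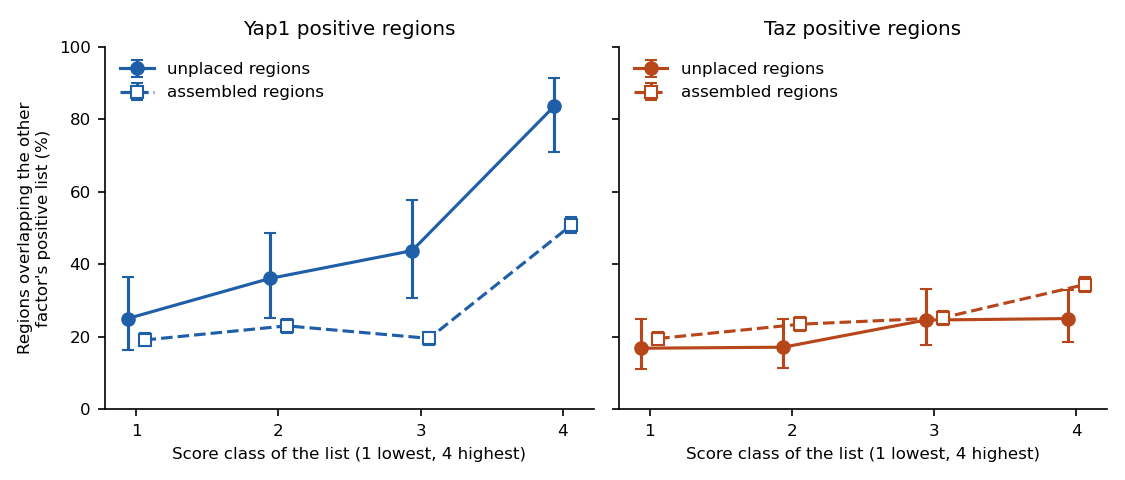
Percentage of Yap1 positive (left) and Taz positive (right) regions that overlap the other factor's positive list, by score class of the list (1 lowest, 4 highest), for unplaced regions (filled, solid line) and assembled chromosomes (open, dashed line), with Wilson 95% intervals. Yap1 members reach 83.7% in the highest class, against 50.8% on assembled chromosomes, while Taz members reach 25.0%, against 34.4%.

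The highest Yap1 score among the members, 799, belonged to chrUn_KN150164v1 (1404 to 2331), which overlapped a Taz region with a score of 235. The second, 461, on chrUn_KN150335v1 (16398 to 18245), had no Taz counterpart. The others were on chrUn_KN150576v1 (16720 to 20933, score 349, Taz score 154), chrUn_KN149742v1 (358 to 2671, score 322, Taz score 222) and chrUn_KN150342v1 (25258 to 25923, score 321, Taz score 102). So 4 of the 5 top Yap1 members were shared, but with Taz scores that were not among the 5 highest Taz members.

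Of the 5 top Taz members, 2 were shared. The highest, with a score of 700, lay on chrUn_KN150170v1 (29820 to 31682) and overlapped a Yap1 region with a score of 59, near the lowest Yap1 score of 57. The region on chrUn_KN150604v1 (20163 to 22029, score 592) was shared with identical edges and a Yap1 score of 165. The regions on chrUn_KN149860v1 (631 to 1677, score 688), chrUn_KN150557v1 (6883 to 8673, score 540) and chrUn_KN150098v1 (23257 to 27115, score 510) had no Yap1 counterpart. Among control members, the top Yap1 control scores were 237, on chrUn_KN149849v1 (8308 to 10317) and chrUn_KN150700v1 (31953 to 33780). The top Taz control scores were 227, on chrUn_KN150127v1 (8626 to 9856), and 177, on chrUn_KN149680v1 (30680 to 31077).

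The longest overlap between the factors spanned the whole 4214 bp of the chrUn_KN150576v1 region named above. It was followed by 3584 bp on chrUn_KN150164v1 (6178 to 9761), 3196 bp on chrUn_KN150698v1 (4798 to 7993), 3173 bp from the first base of chrUn_KN150363v1 and 3043 bp on chrUn_KN150069v1 (7068 to 10110). Except on chrUn_KN150164v1, where the Yap1 region ran on to 10101, these overlaps had identical edges in both lists. The longest Yap1 regions without Taz were 7616 bp on chrUn_KN150631v1 (14593 to 22208) and 6521 bp on chrUn_KN149688v1 (70760 to 77280). The longest Taz regions without Yap1 were 9499 bp on chrUn_KN150170v1 (38214 to 47712) and 6061 bp from the first base of chrUn_KN149965v1. Their scores were 90 and 74 for Yap1, and 92 for the 9499 bp and 81 for the 6061 bp Taz region.

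Positive and control regions almost never overlapped on unplaced sequences. No positive member overlapped its own control list, but the share was 0% in both whole positive lists too, so this 0 holds for the lists as deposited and says nothing about unplaced sequences. Of the Yap1 positive members, 0 of 226 overlapped a Taz control region, which allows a share of up to 1.33%, where 0.596% of the whole list did. Of the Taz positive members, 3 of 480 (0.625%) overlapped a Yap1 control region, where 0.627% of the whole list did. They lay on chrUn_KN149854v1 (5017 to 6367), chrUn_KN150435v1 (101138 to 101782) and chrUn_KN150168v1 (16278 to 22111). In the first pair of these the Yap1 control region had the same start and end. Their Taz scores were 98, 75 and 82, all below the median of 110.

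Positive members nevertheless came close to control regions on some sequences. Of the Yap1 positive members, 80 of 226 (35.4%) lay on a sequence with a Yap1 control region and 29 (12.8%, 9.09 to 17.8) within 10 kb of one, against 7.96% (7.36 to 8.60) on assembled chromosomes. Of the Taz positive members, 97 of 480 (20.2%) lay on a sequence with a Taz control region and 30 (6.25%, 4.41 to 8.78) within 10 kb of one, against 11.2% (10.5 to 11.9) on assembled chromosomes. A region on a sequence without any control region was counted as not close.

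The zebrafish chromosome ends, the outer 1 Mb of each assembled chromosome, were set beside the unplaced members. Taz positive members were shared with Yap1 in 21.0% (17.6 to 24.9), against 14.4% (13.0 to 16.0) at chromosome ends and 29.4% (28.2 to 30.5) on inner chromosomes. Yap1 positive members were shared with Taz in 44.7% (38.4 to 51.2), against 49.7% (45.6 to 53.8) at the ends and 26.3% (25.2 to 27.3) on inner chromosomes. The ends held 2071 Taz positive to 569 Yap1 positive regions, and inner chromosomes 6057 to 6757. The part of these numbers in the shared percentages was not tested. Clustered shares of Taz positive regions were 47.3% (42.9 to 51.8) on unplaced sequences, 74.2% (72.2 to 76.0) at the ends and 29.2% (28.1 to 30.4) on inner chromosomes. For Yap1 positive regions they were 42.9% (36.6 to 49.4), 41.5% (37.5 to 45.6) and 32.6% (31.5 to 33.8). The Taz members lay between the ends and the inner chromosomes in both measures. The Yap1 members had a sharing interval that overlapped that of the chromosome ends. The interval of their clustered share also overlapped that of the ends, and still did without chrUn_KN149688v1, at 36.2% (29.8 to 43.1). Without chrUn_KN150342v1 as well, the clustered share was 29.8% (23.6 to 36.9) and its interval no longer overlapped that of the ends. Regions of 1 list are neighbours on the same DNA and not independent, so these intervals are too narrow by an amount that could not be measured.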

How the data were processed

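The files were lists of regions in BED format from iDamID-seq of zebrafish embryos, 1 positive list for each factor and 1 control list for each factor under the Dam-GFP sample. The factor of a control list was read from its name. Reads were handled with Bowtie2, cutadapt, bedtools and SAMtools on GRCz10 (danRer10), per the submitters' processing notes, which name no versions here. Not given in the sources used here are the region caller, its thresholds, the read depth and the way replicates were combined. The deposited score was a whole number made by the authors; the lowest score was equal in the positive and control list of a factor, and it was used for ordering and filtering inside a single list.

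Positions are 1-based. Overlaps (at least 1 bp), clusters (gaps of at most 10 kb), stretches joined across 4 bp gaps, Wilson 95% intervals and odds ratios with 95% intervals from the log odds were computed with Python 3.11.15, pandas 2.3.3 and SciPy 1.17.1. Overlap counts were checked against bedtools 2.31.1, and the functions were tested on simulated data. With 1 sample per group no p-value is given. For a count of 0, the largest share it allows was taken as 3 regions of the total.

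The members and measures were chosen with earlier results of these data known; the 4 bp gaps, the 1305 bp spacing, recurring lengths, starts at the first base, sharing by score class and the comparison with chromosome ends were chosen after seeing them. The named sequences are the 6 with most regions over the 4 lists. The named regions are the 5 top-scoring members of each positive list and 2 of each control list, the 5 longest overlaps of both factors, the 2 longest regions of 1 positive list only, the largest cluster of each list and every overlap of a positive with a control region. Chromosome ends used the last region end over the 4 lists as the chromosome's length. The Yap1 positive region on the mitochondrial genome (1 region) was left out. Sequence features were planned but not analysed, since no genome of the build was used here. Alternatives were a stricter score, a stricter overlap, other cluster gaps, merged regions and leaving out the richest sequences. Leaving out chrUn_KN149688v1 and chrUn_KN150342v1 together was chosen after seeing the data.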

Additional observations from a re-analysis of the deposited data

How the results depend on the processing

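No alternative moved an odds ratio to the other side of 1. The order of the clustered shares turned for Yap1: without chrUn_KN149688v1 and chrUn_KN150342v1 it was 29.8% of positive against 33.7% of control members, against 42.9% and 33.2% with them. Of 82 alternative values, 63 kept the result (a share within its interval, or an odds ratio on the same side of 1 whose interval still left out or still held 1). The Taz odds ratio for unplaced sequences, positive over control, kept an interval above 1 in all of its alternatives. The Yap1 odds ratio of 1.38 lost it in 3: it was 1.25 (0.942 to 1.67) with regions at or above the median score only, 1.16 (0.925 to 1.46) with regions merged within 10 kb and 1.12 (0.911 to 1.38) without chrUn_KN149688v1 and chrUn_KN150342v1. It was 1.23 (1.01 to 1.51) without chrUn_KN149688v1 alone. The Taz sharing odds ratio, unplaced over assembled, became 0.722 (0.509 to 1.02) with regions at or above the median score only.

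Shared shares moved beyond their intervals with an overlap of 50% of both regions (Yap1 positive 28.3%, Taz positive 13.3%) and with regions at or above the median score only of both lists (Taz positive 15.3%, Yap1 control 17.4%, Taz control 16.7%). Clustered shares moved with a gap of 5 kb (Taz positive 37.1%, Taz control 17.2%), with a gap of 20 kb (Taz positive 57.3%, Taz control 31.0%, Yap1 control 41.7%) and with regions at or above the median score only (Yap1 positive 32.7%, Taz positive 33.3%), where fewer regions or wider gaps change the count by construction. The Yap1 positive clustered share was 36.2% without chrUn_KN149688v1, 29.8% without chrUn_KN150342v1 as well, and 32.3% when regions joined across 4 bp gaps were counted once.

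No paired analysis was possible because each group was 1 sample without values per replicate, and leaving out a replicate was not run for the same reason. Read depth was unknown, and its part in the number of regions in each list was not tested.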
